A study of Drosophila melanogaster with 2 samples.

Results

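The nuclear pore protein genes of Drosophila melanogaster were examined for binding of CG17568, a predicted zinc finger protein, in whole embryos. The set held 24 of the 13986 protein-coding genes in the Ensembl annotation. It was chosen by symbol, as every gene named Nup followed by a digit plus Ndc1, Mtor and Gp210. Mtor stands in the annotation as Mgtor, and this newer symbol is used here. The readouts described (presence of a summit, signal rank, signed distance and divergent neighbour) were part of the choice, so they are given as descriptions with no test.

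The embryos were of both sexes, 0 to 20 h old, and came from 1 transgenic line that carries a C-terminal GFP fusion of CG17568. There was 1 group of 2 biological replicates and no other genotype, age or treatment. The labels disagree on what was sequenced: a free-text note describes input controls, whereas the assay is entered as ChIP-seq of a transcription factor with CG17568 as the antibody target. The samples were read as ChIP samples, and every value below depends on that reading. A separate control named in the labels was not analysed here, so no background level stands beside the peaks. Whole embryos mix all cell types, so a site used in few cells cannot be told apart from one used weakly in many.

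Nuclear pores are large protein channels through the nuclear envelope that carry proteins and RNA between nucleus and cytoplasm. Their proteins, the nucleoporins, are built in sub-complexes: an outer scaffold of Y-shaped complexes, an inner ring, a central channel of repeat-rich proteins, membrane anchors, a nuclear basket and cytoplasmic filaments. Their genes are active in most cells, and several nucleoporins, Nup98 and Megator among them in the fly, are also known to contact chromatin.

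Among strong peaks, the share of nuclear pore genes with a CG17568-GFP site at their start was near that of all coding genes. A promoter was counted as bound when a peak's summit was no more than 500 bp from a transcription start site (TSS) of the gene. The authors' IDR list holds 3396 peaks, the strongest of the pooled replicates, where IDR is the irreproducible discovery rate. By this list 2 of 24 pore genes were bound (8.33%), Ndc1 and Nup37, against 10.1% of all protein-coding genes (1406 genes). The relaxed list of both replicates pooled holds 30000 peaks and is labelled as peaks with background, made as input for IDR. Its −log10 q-values begin at 0.383, against 2.09 in the IDR list, so some of its summits may be background. In this relaxed list 3 pore genes had a summit (12.5%), against 29.2% of all coding genes. The third was Nup44A.

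The replicates gave the same picture one by one. In replicate 1 the relaxed list placed a summit at 2 pore genes (8.33%), against 30.2% of coding genes. In replicate 2 it did so at 3 pore genes (12.5%), against 32.8% of coding genes, and the third was FBgn0039120, which encodes both Nup98 and Nup96. Ndc1 and Nup37 were the pore genes with a relaxed summit in both replicates, a state shared by 25.5% of coding genes. They were also the pore genes reached by the 3396 strongest peaks of each replicate alone, which reached 10.2% of coding genes in replicate 1 and 11.5% in replicate 2. No summit of any list lay in the window at 20 of the 24 genes. The share of pore genes was thus near that of all coding genes among the strong peaks. It was below that of coding genes in every relaxed list, but those lists reach down to weak summits that may be background. The difference was not tested.

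**Figure D1:**
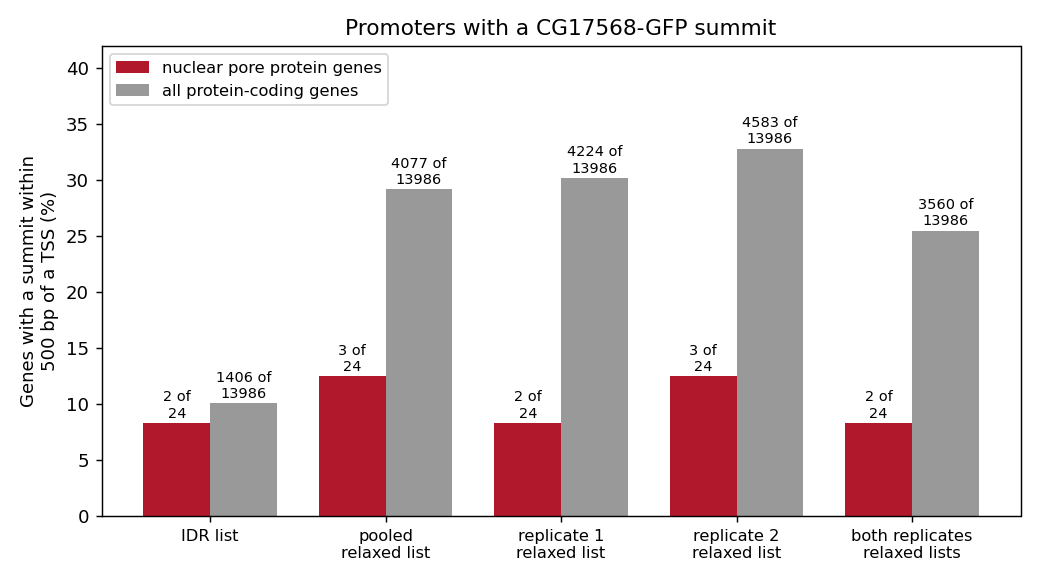
Share of promoters with a summit within 500 bp of a TSS (percent), for the 24 nuclear pore protein genes (red) and all 13986 protein-coding genes (grey) in each peak list, with counts above the bars. The red bars stand at 8.33% or 12.5% in every list, while the grey bars run from 10.1% in the IDR list to 32.8% in the relaxed list of replicate 2.

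Ndc1 encodes a membrane protein that anchors the pore scaffold in the nuclear envelope, and it held the strongest site of the set by far. The gene lies on chromosome arm 3R from 23924399 to 23926436 on the plus strand of dm6 and has 1 TSS. The IDR summit was 43 bp upstream of it, at 23924356, in intergenic sequence. Its signal, which the authors' peak caller reports on an unstated scale, was 1727, rank 9 of the 3396 IDR peaks. In replicate 1 the summit was 31 bp upstream with a signal of 871 and rank 10 of 30000. In replicate 2 it was 44 bp upstream with a signal of 867 and rank 8. Among the 1153 IDR summits at coding promoters the Ndc1 summit ranked 7, where the median signal was 211. The 250 bases upstream of the Ndc1 TSS are shown because they hold this site, with the summit 43 bases before the TSS. Capitals mark matches to the motifs searched, which are described further down: TACCTG, the reverse complement of the Zelda motif CAGGTA, and TATCG, the reverse complement of the BEAF-32 motif CGATA. The sequence is the RefSeq Release 6 genome at chr3R:23924149-23924398, plus strand.
Ndc1 upstream: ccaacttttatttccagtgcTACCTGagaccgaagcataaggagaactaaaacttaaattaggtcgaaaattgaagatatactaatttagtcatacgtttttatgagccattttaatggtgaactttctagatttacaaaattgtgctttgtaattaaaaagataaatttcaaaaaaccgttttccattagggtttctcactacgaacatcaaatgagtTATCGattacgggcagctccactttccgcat

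A weaker IDR summit lay at -1350 bp from the Ndc1 TSS (negative is upstream), at 23923049, with a signal of 189.6 and rank 1679. It was at rank 2008 in replicate 1 and rank 1974 in replicate 2. Its nearest TSSs were those of the neighbouring genes sba, at -76 bp, and CG31141, at -251 bp. Inside Ndc1 the pooled relaxed list had 1 summit, 725 bp past the TSS at rank 15210. Replicate 1 had one 695 bp past the TSS at rank 8328, and replicate 2 had none there. Thus the promoter site of Ndc1 stood near the top of both replicates, while the site inside the gene was weak and seen in replicate 1 and the pool.

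Nup37, whose product is a subunit of the Y complex, held the other IDR summit. The gene lies on 3R from 25247658 to 25249100 on the plus strand and has 2 TSSs. The summit at 25247491 was 167 bp upstream of the nearer TSS, with a signal of 893 and rank 75 in the IDR list. It was at rank 70 in replicate 1, 170 bp upstream, and at rank 81 in replicate 2, 164 bp upstream. The site is shared: RpS27, which encodes a protein of the small ribosomal subunit, starts 144 bp from Nup37 on the opposite strand. The summit fell in the annotated 5' UTR of RpS27, 19 bp upstream of one of its TSSs and so nearer to RpS27 than to Nup37. Peak lists cannot say to which of the 2 genes this site belongs. It also lay at -69 bp from the start of the non-coding gene sisRNA:CR46364. The 143 bases between the starts of RpS27 and Nup37 (chr3R:25247515-25247657) and 30 bases around the summit (chr3R:25247476-25247505) are shown on the plus strand because they make up this divergent promoter and its site. Capitals mark the E-box CAGCTG.
RpS27 to Nup37: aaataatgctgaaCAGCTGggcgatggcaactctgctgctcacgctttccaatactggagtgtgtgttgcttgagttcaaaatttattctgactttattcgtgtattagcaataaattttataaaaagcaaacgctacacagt
Nup37 summit: ggtaaatcgcagccaacttaacttgcccga

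**Figure D2:**
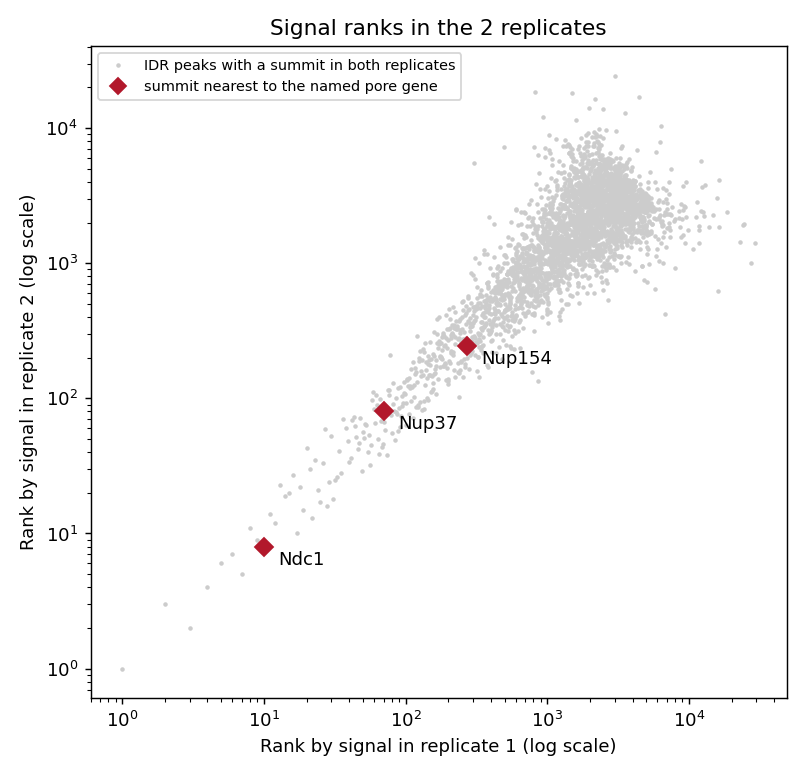
Rank by signal in replicate 1 (horizontal, log scale) against rank in replicate 2 (vertical, log scale) for the 3209 IDR peaks with a summit within 100 bp in both replicates (grey), with the summits nearest to Ndc1, Nup37 and Nup154 in red. Ndc1 lies at ranks 10 and 8, Nup37 at 70 and 81, and Nup154 at 271 and 243, all close to the diagonal.

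The 500 bp window decided the state of a few genes. Just inside it, Nup44A, the fly Seh1 and a Y complex subunit, had a pooled summit 378 bp upstream of a TSS. That summit had a signal of 34.0 and rank 27631 of 30000, near the bottom of the list, and no counterpart in the window in either replicate. Just outside it, Nup44A had another pooled summit 579 bp upstream at rank 3866, which appeared 641 bp upstream at rank 3967 in replicate 1 and 572 bp upstream at rank 4565 in replicate 2. The stronger site of Nup44A therefore lay outside the window, and the weak one inside it. Both lay within the overlapping gene ACC.

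Nup154, an inner ring scaffold protein gene on 2L (11004820 to 11010921), was the next gene outside. The IDR summit at 11004103 was 717 bp upstream of its TSS with a signal of 505 and rank 253. In replicate 1 it was 695 bp upstream at rank 271, and in replicate 2 it was 717 bp upstream at rank 243. It fell in the 5' UTR of RpL9, a large ribosomal subunit protein gene that starts 631 bp from Nup154 on the other strand, and was 50 bp downstream of an RpL9 TSS. Like the Nup37 site, it thus lay at the start of a divergent ribosomal protein gene. The 30 bases around the match to ACCGGAAA, 24 bp past the summit, are shown because this 8-mer was the third by ratio of summit to flank windows among those at IDR summits (chr2L:11004116-11004145, plus strand, match in capitals).
Nup154 site: acacactactcACCGGAAAcggggaaaaga

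The gene FBgn0039120 on 3R (23774225 to 23781621), which encodes both the mobile nucleoporin Nup98 and the Y complex subunit Nup96, had its IDR summit 1310 bp upstream, at rank 921 with a signal of 265. The same site was at rank 1133 in replicate 1 and rank 977 in replicate 2. It lay within mbc, the divergent neighbour. Replicate 2 also held a summit 256 bp upstream of the Nup98 and Nup96 gene at rank 20459, 112 bp inside mbc, with no counterpart in the window in replicate 1 or the pool. That single weak summit is what placed the Nup98 and Nup96 gene inside the window in replicate 2.

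**Figure D3:**
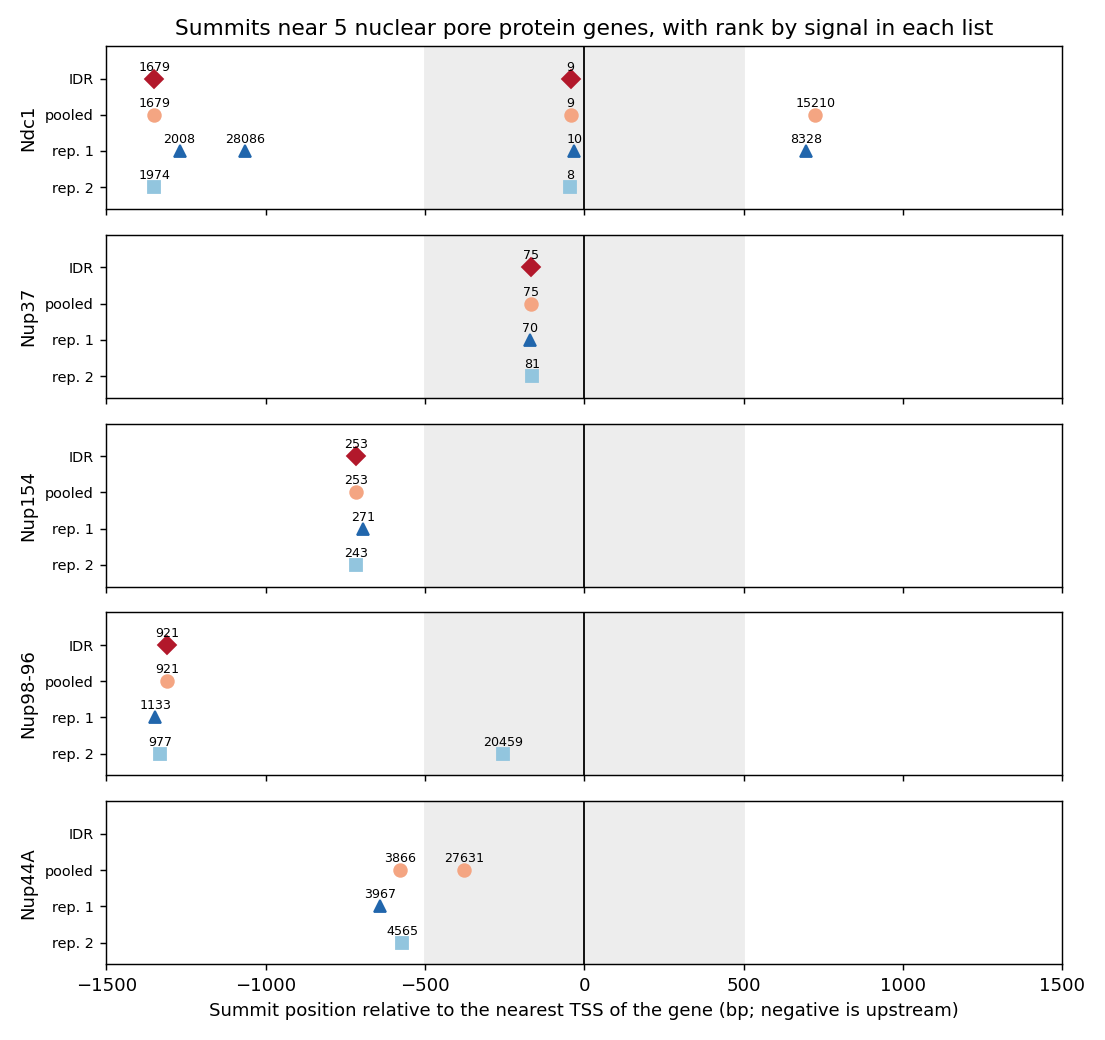
Position of every summit within 1500 bp of the TSS of Ndc1, Nup37, Nup154, the Nup98 and Nup96 gene and Nup44A (horizontal axis in bp, negative upstream; grey band, 500 bp either side), one row per peak list, with the rank by signal above each summit. Ndc1 and Nup37 have a summit in the band in all 4 lists, at ranks 8 to 10 and 70 to 81, Nup154 has its summit outside the band in all 4, and the summits of the Nup98 and Nup96 gene and Nup44A in the band appear in 1 list each, at ranks 20459 and 27631.

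Taken by role, the Y complex had 1 of 8 genes bound in the IDR list (Nup37), and the membrane group 1 of 2 (Ndc1), beside 10.1% of all coding genes. The other membrane gene, Gp210, was the gene farthest from a strong site, with the nearest IDR summit 221137 bp away and the nearest pooled summit 12407 bp away. None of the other 4 groups had a bound member: 0 of 6 inner ring genes, 0 of 3 central channel genes, 0 of 3 basket genes and 0 of 2 cytoplasmic genes. These groups also had no relaxed summit in the window in any list, where 29.2% of coding genes had one in the pooled list. With 2 to 8 genes a role and 10.1% of coding genes bound, no difference between roles can be read from these counts.

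Within the Y complex, Nup107, Nup133, Nup160, Nup43 and Nup75 had their nearest IDR summit 16034, 22770, 16921, 30585 and 35638 bp away. The nearest pooled summits of these 5 genes were 13974, 21268, 16921, 25839 and 24774 bp away. For Nup160, a structural subunit of this complex, the nearest summit was a strong one in every list, at rank 123 of the IDR list, rank 137 in replicate 1 and rank 125 in replicate 2. The replicates placed the relaxed summit nearest to Nup75 closer than the pool did, 10272 bp away in replicate 1 (rank 2266) and 6570 bp away in replicate 2 (rank 9261). The Y complex thus ranged from a site at the start of Nup37 to these 5 genes, whose nearest summit in any list was 6570 bp or more away.

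Among the inner ring genes the nearest IDR summits were 717 bp away at Nup154, 2242 bp at Nup93-1, 3030 bp at Nup35, 5107 bp at Nup205, 19011 bp at Nup188 and 44431 bp at Nup93-2. Nup93-1 and Nup93-2 are paralogs that encode the scaffold protein Nup93. Nup93-1 had relaxed summits 2041 bp upstream in the pool and 2043 bp upstream in replicate 2, while those of Nup93-2 were 14345 bp away in the pool, 14373 bp in replicate 1 and 14337 bp in replicate 2.

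Of the central channel genes, whose products form the permeability barrier, Nup58 was nearest to an IDR summit (3157 bp), followed by Nup62 (5636 bp) and Nup54 (107180 bp). The basket genes Nup50, Nup153 and Mgtor were 23169, 25398 and 37295 bp from theirs. Mgtor encodes Megator, the filament protein of the basket. On the cytoplasmic side, Nup214, a docking site for export factors, was 1587 bp and Nup358, the fly RanBP2, 1857 bp from an IDR summit. The summit nearest to Nup358 was the one shared by RpS27 and Nup37, since Nup358 follows Nup37 directly on the same strand.

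Over all 24 genes the distance from a TSS to the nearest IDR summit had a median of 16477.5 bp, against 16225 bp over the 13945 coding genes on chromosomes with peaks. To the nearest pooled summit the median was 5976 bp for pore genes and 3873 bp for coding genes. In replicate 1 these medians were 5954.5 and 3364 bp, and in replicate 2 they were 6384.5 and 2810 bp. The median distance to strong peaks was thus close to that of coding genes at large, and the median distance to relaxed peaks was longer. In each relaxed list the pore gene median still lay between the quartiles of coding genes, 302 and 11902 bp in the pool. The difference was not tested. Inside the transcribed regions, 0 of 24 pore genes held an IDR summit, against 9.8% of coding genes. A pooled summit lay inside 2 pore genes (8.33%), Gp210 and Ndc1, against 25.8% of coding genes. Pore genes were 1276 to 13463 bp long. The summits of Ndc1 and Nup37 had a median position of -105 bp from the TSS, against -125.5 bp over the 1406 bound coding genes (quartiles -229 and 11 bp).

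**Figure D4:**
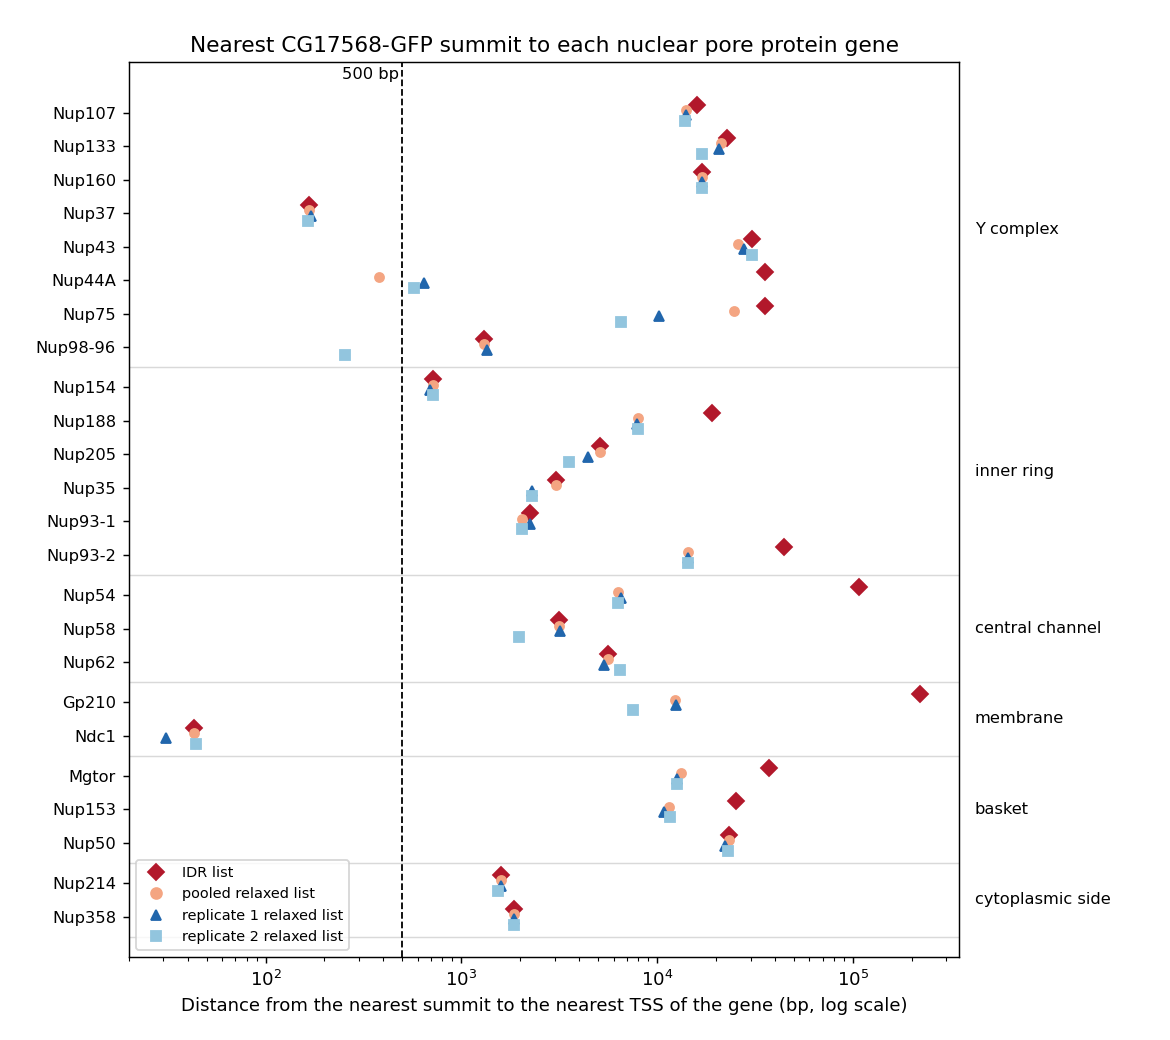
Distance from the nearest summit to the nearest TSS of each nuclear pore protein gene (bp, log scale), by role, for the IDR list (red diamonds), the pooled relaxed list (orange circles), replicate 1 (dark blue triangles) and replicate 2 (light blue squares). Ndc1 and Nup37 lie left of the dashed line at 500 bp in all 4 lists, Nup44A and the Nup98 and Nup96 gene in 1 list each, and Gp210 has the most distant IDR summit at 221137 bp.

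Pore genes were often arranged head to head with a neighbour. Within 1000 bp upstream of any of their TSSs, 19 of 24 genes had a neighbour that starts on the other strand (79.2%), against 5533 of 13986 coding genes (39.6%). Nup44A counts here through its TSS farthest downstream, 145 bp from a start of the overlapping gene ACC, which is not a head-to-head arrangement of the 2 genes. The nearest such TSS was 26 to 640 bp away, with a median of 210 bp. The 5 genes without one were Ndc1, Nup107, Nup54, Nup358 and Mgtor. Among divergent genes, 1 of 19 pore genes was bound in the IDR list (5.26%), against 13.5% of all divergent coding genes. A pooled summit lay at 2 of 19 (10.5%), Nup37 and Nup44A, against 30.3%. That of Nup44A was upstream of its first TSS, not at the TSS that counts as divergent. Among genes without a divergent neighbour, 1 of 5 pore genes was bound, against 7.8% of coding genes.

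Of the 19 divergent pore genes, 3 had a neighbour with an IDR summit within 500 bp of any of its own TSSs (15.8%). This share was near the 13.5% of divergent coding genes that were bound themselves. These neighbours were RpS27 beside Nup37, RpL9 beside Nup154 and ReepA beside Nup214. The ReepA summit was 224 bp upstream of a TSS of ReepA, at rank 895, and was also the summit nearest to Nup214. It lay 1587 bp from Nup214, whereas the divergent ReepA start lay 365 bp from Nup214. The ReepA site was thus at another TSS of ReepA, not at the start that faces Nup214. Another neighbour, pico beside Nup205, had a weak pooled summit at rank 14375. That site too was away from the pico start 155 bp from Nup205, as the nearest pooled summit to Nup205 was 5107 bp away. Of these partner sites, the one at RpS27 reached the 500 bp window of the pore gene.

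Number and position of start sites also differ between genes. Of the 24 pore genes 20 had 1 TSS (83.3%), against 73.5% of coding genes. Among coding genes with 1 TSS, 6.24% were bound in the IDR list and 21.7% had a pooled summit. Of the 20 pore genes with 1 TSS, only Ndc1 had either. The pore genes lay on 2R (9 genes), 3R (8), X (4) and 2L (3), and the share of coding genes with an IDR summit on these arms ran from 8.52% on 2R to 11.7% on 2L.

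Short motifs were sought on both strands in the 300 bases that end 49 bp past the TSS farthest upstream, in pore genes and in the 13945 coding genes. The motifs were TATCGATA (DRE), GGTCACAC (bound by M1BP), CGATA (BEAF-32), CAGCTG (an E-box), GAGAG (GAGA factor) and CAGGTA (Zelda). DRE, the site of the DREF factor at many housekeeping promoters, was in 7 pore promoters (29.2%) and in 9.36% of coding promoters. It was in 11.5% of coding promoters with an IDR summit and 9.12% of those without. Of the 7 pore genes with DRE, Gp210, Mgtor, Nup188, Nup50, Nup54, Nup58 and Nup75, 0 had an IDR summit in the window, against 162 of the 1305 coding genes with DRE (12.4%). CGATA, which lies within DRE, was in 15 pore promoters (62.5%) and 47.4% of coding promoters. GAGAG was in 3 pore promoters (12.5%), against 29.7% of coding promoters. CAGCTG was in 4 pore promoters (16.7%, against 17.7%) and CAGGTA in 2 (8.33%, against 6.24%).

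The M1BP motif GGTCACAC, a core promoter element of housekeeping genes, was in 4 pore promoters (16.7%), those of Ndc1, Nup160, Nup43 and Nup93-2, against 7.7% of coding promoters and 9.89% of coding promoters with an IDR summit. Its first base, counted from the TSS as 0, lay at 2 in Ndc1, 12 in Nup43, 32 in Nup93-2 and -222 in Nup160, where it was on the opposite strand. The matches are shown in the orientation of the motif, with the motif in capitals, because the bound Ndc1 promoter and the other 3, which had no summit in the window, carry the same 8 bases. They lie at chr3R:23924390-23924419 (plus strand), chr2L:11123544-11123573 (minus), chr3R:18366639-18366668 (plus) and chr3R:14898322-14898351 (minus).
Ndc1: tttccgcatgcGGTCACACttaaaagtgca
Nup160: tgccacatattGGTCACACtgcattgcacg
Nup43: cttcttgctctGGTCACACttaactcgaaa
Nup93-2: cgccaacatctGGTCACACtgatcttgccg

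Around the summits themselves, in 101 bases, the matches were few. The Ndc1 window held CGATA on the minus strand with its first base 12 bp past the summit, and CGATA was in 12.2% of all IDR summit windows, 14.8% of those at coding promoters and 11.8% of windows centred 300 bp to either side. The GGTCACAC match of Ndc1, just past the TSS, ran over the edge of its window and so was not counted. The Nup37 window held CAGCTG 37 bp past the summit, a motif in 4.15% of IDR windows and 4.64% of flanking windows. In a search of all 8-mers at 1% or more of IDR summits, the 10 with the highest ratio of summit to flank windows had no match in the Ndc1 or Nup37 window. The leading one, TAGGTAAA, was at 1.15% of IDR summits and 0.221% of flanks, and in 0 of 24 pore promoters against 1.61% of coding promoters. Of the others, AATATTTG was in 4 pore promoters (16.7%, against 5.49% of coding promoters). TAATATCA was in 2 (8.33%, against 1.94%) and ATATTTAC in 1 (4.17%, against 3.71%). The rest of the 10 were in no pore promoter. ACCGGAAA, found at the Nup154 and RpL9 site, was at 1.03% of IDR summits, 1.73% of IDR summits at coding promoters, 0.221% of flanks and 0.839% of coding promoters.

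Other genes of nuclear transport and the nuclear envelope, in 4 lists of 42 genes, were set beside the pore genes. In all, 5 of 42 were bound in the IDR list (11.9%) and 10 had a pooled summit (23.8%), against 10.1% and 29.2% of coding genes. The 6 pore proteins under other names, mbo, Rae1, Sec13, Elys, Aladin and Gle1, had no IDR or pooled summit in the window. Of 22 transport receptor genes 2 were bound: Kap-alpha3, an importin alpha (signal 407, rank 411, at -8 bp), and Tnpo-SR, the import receptor of SR splicing factors (283, rank 846, at -97 bp). Of the 4 genes listed around Ran (Ran, Rcc1, RanGAP and RanBPM) none was bound, and RanBPM had a pooled summit at rank 4852. Of 10 genes listed around the lamina and nuclear membranes 3 were bound. These were Msp300 (signal 339, rank 579, at -394 bp), klar (182, rank 1813, at -223 bp) and koi (130, rank 3268, 136 bp past the TSS). The koi summit was near the bottom of the 3396 IDR peaks, whose lowest signal was 127. Msp300 and klar encode KASH-domain proteins and koi encodes a SUN-domain protein, which together link the nuclear envelope to the cytoskeleton.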

How the data were processed

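ChIP-seq peak lists of 2 biological replicates (sonicated fragments of 200 to 800 bp) were used as deposited on dm6, in narrowPeak format per the text deposited with them. Per the deposited text, the authors made relaxed lists for replicate 1, replicate 2 and the pool (30000 peaks each), and from these the IDR list of 3396. All 3396 were in the pooled list and were its peaks of highest signal. The signal value is the authors' score with no stated scale, which served here to order peaks inside one list. The deposited −log10 q-values ran from 2.09 to 3.20 in the IDR list. They began at 0.383 in the pooled relaxed list, 0.354 in that of replicate 1 and 0.361 in that of replicate 2. The authors' summit offsets gave the summits. No source used here names the peak caller, the aligner or the IDR threshold. The lists hold no read counts, so depth is unknown.

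Summits were placed with Ensembl release 115 (BDGP6.54, no transposable elements) in Python 3.11.15 with pandas 2.3.3, and sequence came from RefSeq Release 6, the same build. All peaks lay within its chromosome lengths. Distance assignment was checked on planted summits. Members, gene lists and motifs were chosen with earlier results of these data known. All members were named, and up to 4 bound genes of each other list. The 8-mers after the leading one were added after the data were seen. Mtor was matched to Mgtor, and Ranbp9 to Ipo9, by synonym. Alternatives were other windows, thresholds, replicates, match distances and backgrounds.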

Additional observations from a re-analysis of the deposited data

How the results depend on the processing

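The count of 2 bound pore genes stayed at 2 when the 3396 strongest peaks of either replicate alone took the place of the IDR list. The IDR list itself was not remade. It was also 2 with a 250 bp window, the upper 1698 IDR peaks, the 6792 strongest pooled peaks, whole peak intervals or the TSS farthest upstream, and 3 with a 1000 bp window, which 12.4% of coding genes reached. That wider window moved the genes with a relaxed summit in both replicates to 4 and the median summit distance to -167 bp, from -105 bp, by adding Nup154 and Nup44A to the first and Nup154 to the second. The share of bound pore genes minus that of coding genes was -1.72 percentage points among all genes and 32.2 among genes with a pooled summit, where 2 of 3 pore genes stood against 34.5% of 4077. The second rests on 3 genes. Unknown depth limits all absences: a gene without a summit had none among the 30000 listed.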
